A study of Bos taurus with 14 samples.

Results

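The genes described here encode the contractile proteins of fast skeletal muscle fibres, and their transcripts were measured in the *M. longissimus dorsi* (LD) muscle of cattle. The list held 10 genes, *MYH1*, *MYH2*, *MYL1*, *MYLPF*, *TNNC2*, *TNNI2*, *TNNT3*, *ACTN3*, *MYBPC2* and *TPM1*. A probe set, which is the group of short oligonucleotides that reads a transcript on the array, was taken as a member when its only annotated gene symbol was a listed gene. This gave 17 of the 24016 bovine probe sets on the array, for 8 of the 10 genes, among 9155 genes that the array reads with an unambiguous symbol. No probe set carried the symbol of *MYH2* or *MYBPC2*, so these genes were not analysed here. *MYLPF* was found under its current symbol, *MYL11*, and *MYH1* had 8 probe sets.

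All animals were Charolais × Limousin crossbred heifers that had been randomly assigned to a production system for a year before slaughter. The 7 outdoor/pasture-fed heifers grazed outdoors, and the 7 indoor/concentrate-fed heifers were housed and offered concentrates and straw. Feed and housing thus differed together between the groups and cannot be told apart. RNA from each animal was hybridised to 1 Affymetrix GeneChip Bovine Genome Array, and expression values are on the log2 scale. Animals were kept in pens or grazing groups that the sample labels do not give, and each array was treated as independent.

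Fast, or type 2, fibres contract quickly and draw more on glycolysis than slow, or type 1, fibres. Each fibre type is built with its own versions of the same proteins. The myosin heavy chain is the motor and sets the speed of contraction, with *MYH2* encoding the 2A chain of fast oxidative fibres and *MYH1* the 2X chain of fast glycolytic fibres. *MYL1* encodes an essential and *MYLPF* a regulatory light chain of fast myosin. The fast troponin complex (*TNNC2*, *TNNI2* and *TNNT3*) senses calcium on the thin filament and moves tropomyosin, one form of which is encoded by *TPM1*. *ACTN3* anchors thin filaments at the Z-disc of fast fibres, and *MYBPC2* encodes the fast form of myosin binding protein C.

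None of the 17 fast fibre probe sets differed between the groups after adjustment (limma, Benjamini-Hochberg over all probe sets), where 0.0167% of all probe sets passed. The largest differences lay among the probe sets annotated to *MYH1*, which differed in opposite directions. Whether the brightest of them reads *MYH1* or the 2A gene *MYH2* is not known from the sources used here. In outdoor/pasture-fed animals the brightest was 0.14 higher, and another 3 differed by −0.15 to −0.90. A further 3 were higher, by 0.01, 0.13 and 0.20. Without outdoor/pasture-fed replicate 5 these last 3 differences were −0.0037, −0.0997 and 0.0124. The troponin probe sets of *TNNC2* and *TNNI2* and that of *ACTN3* differed by −0.01 to −0.07, and the *TPM1* probe sets by 0.05 and 0.15.

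In each whole muscle sample, fewer fibres of a type and less RNA per fibre cannot be told apart. The tissue label was borne out by the muscle markers, of which *ACTA1*, *CKM* and *MYH7* had mean values between 13.80 and 14.11 in both groups. None of the 6 endothelium markers passed after adjustment (limma). All 5 varying markers of 6 were higher in outdoor/pasture-fed muscle at an unadjusted p under 0.05 (limma), a level at which 9.23% of all varying probe sets were higher, and their median difference was 0.43. The mean of all 6 markers per array was 8.45 to 8.80 in outdoor/pasture-fed and 8.03 to 8.46 in indoor/concentrate-fed animals. The part of this difference in the results on fast fibre genes was not tested. Median expression per array was 6.77 to 6.84 in outdoor/pasture-fed and 6.78 to 6.80 in indoor/concentrate-fed animals.

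Not every probe set could show a difference. Of the 17, 12 varied over the 14 arrays (SD above 0.01) and 5 were flat, with a range of 0.0060 or less. Over the whole array 59.9% of probe sets were flat in this way. The flat members were *TNNT3* (14.16), *MYL1* (13.85), both *MYLPF* probe sets (13.91 and 10.91) and *MYH1* Bt.29854.1.S1_at (5.73), and each showed these levels in both groups. The largest difference among them was 0.0020, at a *MYLPF* probe set (limma unadjusted p = 0.0242, adjusted p = 0.352). Differences of the flat probe sets, which include all those of the light chains and fast troponin T, are not described further.

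A further limit was the upper end of the scale. Mean values of 9 of the 17 probe sets, 6 varying and 3 flat, exceeded the 99th percentile of all probe set means (12.90), and they were treated as near-saturated. *TNNC2* was the brightest bovine probe set on 14 of 14 arrays. Among varying probe sets above that percentile the median SD was 0.071, against 0.177 for all varying probe sets. Quantile normalisation holds the highest values of all arrays at like levels, which limits how far such probe sets can differ.

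*MYH1*, the 2X myosin gene, was read by 8 probe sets designed from 5 source sequences. The suffix of a probe set name tells how specific its probes are, with "_a_" marking probes shared by transcripts of 1 gene and "_x_" marking probes that may also bind other transcripts. In the cattle annotation ARS-UCD2.0 *MYH2* is the gene next to *MYH1*, and *MYH3* lies on its far side. Myosin heavy chain genes are similar in sequence, and whether a *MYH1* probe set also reads a neighbour was not tested. This applies above all to Bt.12300.2.S1_at. It is annotated to *MYH1* but was designed from another sequence than the *MYH1* reference record behind the Bt.12300.1 pair, and that sequence may be one of 2A myosin, so its values may be those of *MYH1* or of *MYH2*.

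The brightest probe set annotated to *MYH1*, Bt.12300.2.S1_at, had a lowest, median and highest value of 13.85, 13.96 and 14.01 in outdoor/pasture-fed and 13.73, 13.83 and 13.89 in indoor/concentrate-fed animals. Of the outdoor/pasture-fed animals 6 of 7 lay above every indoor/concentrate-fed animal, and only replicate 6 overlapped. The mean was 13.94 ± 0.05 in outdoor/pasture-fed and 13.81 ± 0.06 in indoor/concentrate-fed animals (SD, n = 7 each). The difference was 0.14 (SE 0.03), with an adjusted p of 0.148 by limma and a two-sided exact permutation p of 0.00117. The smallest p that 7 against 7 arrays allow is 0.000583.

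Bt.12300.1.S1_at, also near-saturated, gave the opposite direction. Its lowest, median and highest values were 13.47, 13.80 and 13.95 in outdoor/pasture-fed and 13.83, 13.91 and 13.94 in indoor/concentrate-fed animals. Here 6 of 7 outdoor/pasture-fed animals lay below every indoor/concentrate-fed animal, while replicate 2 lay above all of them. The difference was −0.15 (SE 0.06, limma adjusted p = 0.363, exact permutation p = 0.0175). Its partner from the same source sequence, Bt.12300.1.S1_a_at, had means of 13.68 in both groups, a difference of 0.01 and an exact permutation p of 0.747.

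Bt.29854.1.A1_at, which lay well below the upper end of the scale, showed the largest difference among the members. Values in outdoor/pasture-fed animals were 7.90, 10.01, 8.60, 9.53, 8.12, 9.61 and 8.95 for replicates 1 to 7. Those in indoor/concentrate-fed animals were 9.92, 9.67, 9.91, 9.56, 10.02, 9.90 and 10.04. The indoor/concentrate-fed animals were close together, whereas the outdoor/pasture-fed animals spread over a wide range, with replicates 1, 5 and 3 lowest. Replicates 2 and 6 lay within the range of the indoor/concentrate-fed animals, and the other 5 of 7 lay below all of these. Means were 8.96 ± 0.80 in outdoor/pasture-fed and 9.86 ± 0.18 in indoor/concentrate-fed animals, a difference of −0.90 (SE 0.31) or 0.537-fold. The limma adjusted p was 0.288 and the exact permutation p 0.0134.

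Its partner Bt.29854.1.S1_x_at had values of 6.38 to 7.04 (median 6.80) in outdoor/pasture-fed and 6.91 to 7.08 (median 6.98) in indoor/concentrate-fed animals. The difference was −0.24 (SE 0.09, limma adjusted p = 0.331, exact permutation p = 0.0169), and 5 of 7 outdoor/pasture-fed animals lay below every indoor/concentrate-fed animal. The order of animals was the same as for Bt.29854.1.A1_at among the outdoor/pasture-fed arrays (Spearman's rho = 1, exact permutation p = 0.000397, adjusted p = 0.0524). Pearson's r was 0.97 (exact permutation p = 0.000595, adjusted p = 0.0786 over 132 correlations), and 0.96 without the 2 animals farthest from the median. Bt.29854.1.A1_at and Bt.29854.1.S1_x_at come from the same source sequence, so their agreement is not independent evidence. Another probe set of that sequence, Bt.29854.1.S1_at, was flat (5.73).

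Of the dim *MYH1* probe sets, Bt.4867.1.A1_at had values of 5.61 to 7.26 (median 5.68) in outdoor/pasture-fed and 5.57 to 6.18 (median 5.74) in indoor/concentrate-fed animals. Bt.4867.2.S1_at had values of 5.54 to 6.92 (median 5.57) in outdoor/pasture-fed and 5.49 to 5.90 (median 5.56) in indoor/concentrate-fed animals. Replicate 5 of the outdoor/pasture-fed and replicate 1 of the indoor/concentrate-fed animals stood apart in both as the highest of their group. The differences were 0.13 (exact permutation p = 0.886) and 0.20 (exact permutation p = 0.425), and without outdoor/pasture-fed replicate 5 they were −0.0997 and 0.0124. These animals were also highest in their group for the embryonic myosin *MYH3* (10.05 in the outdoor/pasture-fed and 6.48 in the indoor/concentrate-fed animal) and the perinatal myosin *MYH8* (7.43 and 6.27).

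**Figure D1:**
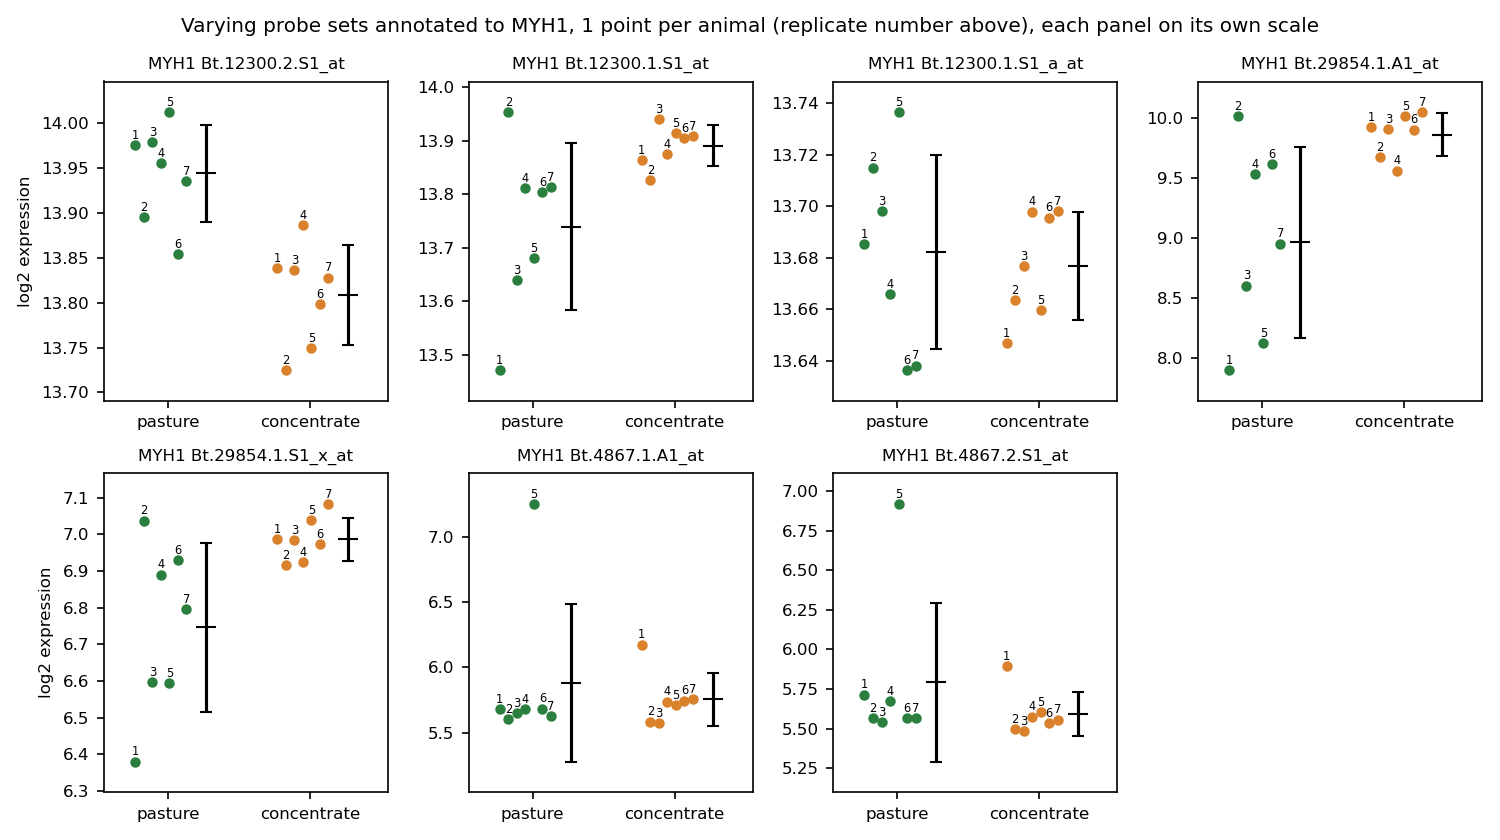
Log2 expression (y axis) of the 7 varying *MYH1* probe sets in outdoor/pasture-fed (left, green) and indoor/concentrate-fed (right, orange) animals. Points are animals with replicate numbers, bars are the mean and SD, n = 7 each, and each panel has its own scale. Bt.12300.2.S1_at lay higher in outdoor/pasture-fed animals, the varying Bt.29854.1 probe sets lower.

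The intended comparison of *MYH2* with *MYH1* could not be made, since no probe set is annotated to *MYH2*. As a description chosen after the values were seen, with no test, the within-array difference between the probe sets of highest mean annotated to *MYH1*, Bt.12300.2.S1_at minus Bt.12300.1.S1_at, was taken for each animal. It was 0.50, −0.06, 0.34, 0.14, 0.33, 0.05 and 0.12 in outdoor/pasture-fed replicates 1 to 7, and −0.03, −0.10, −0.10, 0.01, −0.16, −0.11 and −0.08 in indoor/concentrate-fed replicates 1 to 7. All but 1 of the outdoor/pasture-fed animals, replicate 2, were above every indoor/concentrate-fed animal. The shift between the groups was 0.29. It restates the opposite differences of these probe sets, both of which are near-saturated, and it cannot be read as 2A against 2X myosin while the identity of Bt.12300.2.S1_at is not known.

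For fast troponin C, fast troponin I and *ACTN3* the values were near the upper end of the scale. *TNNC2*, the calcium-binding subunit, had a lowest, median and highest value of 14.40, 14.41 and 14.42 in outdoor/pasture-fed and 14.41, 14.42 and 14.44 in indoor/concentrate-fed animals. With 5 of 7 outdoor/pasture-fed animals below every indoor/concentrate-fed animal, the difference was −0.01 (SE 0.0044, limma adjusted p = 0.250, exact permutation p = 0.00758), and 0 after renewed quantile normalisation. *TNNI2*, the inhibitory subunit, had 13.92, 14.06 and 14.14 in outdoor/pasture-fed and 14.08, 14.15 and 14.20 in indoor/concentrate-fed animals. The groups overlapped, with 4 of 7 outdoor/pasture-fed animals below every indoor/concentrate-fed one, and the difference was −0.07 (SE 0.03, limma adjusted p = 0.402, exact permutation p = 0.0303).

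*ACTN3* had values of 13.16, 13.23 and 13.27 (lowest, median, highest) in outdoor/pasture-fed and 13.24, 13.27 and 13.31 in indoor/concentrate-fed animals. Replicate 1 of the outdoor/pasture-fed group was lowest, as for *TNNI2*, and 5 of 7 animals of that group lay below every indoor/concentrate-fed animal. The difference was −0.04 (SE 0.02, limma adjusted p = 0.365, exact permutation p = 0.0227).

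*TPM1*, which is shared by fast fibres and other muscle, was read by a bright and a dimmer probe set away from the upper end of the scale. For Bt.6442.1.S1_at the lowest, median and highest values were 11.13, 11.41 and 11.56 in outdoor/pasture-fed and 11.02, 11.22 and 11.34 in indoor/concentrate-fed animals. Outdoor/pasture-fed replicates 5, 1, 3 and 7 were above every indoor/concentrate-fed animal, and replicates 2, 4 and 6 lay within the range of that group. The difference was 0.15 (SE 0.08, limma adjusted p = 0.485, exact permutation p = 0.0746). Bt.25001.1.A1_at ran from 7.53 to 7.99 (median 7.66) in outdoor/pasture-fed and from 7.56 to 7.91 (median 7.64) in indoor/concentrate-fed animals, a difference of 0.05 (exact permutation p = 0.505). It was 0.0081 without outdoor/pasture-fed replicate 5, 0.0226 without replicate 1 and 0.0842 without replicate 2 of that group. Without indoor/concentrate-fed replicates 1 and 2, each left out in turn, it was 0.0922 and 0.0334.

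**Figure D2:**
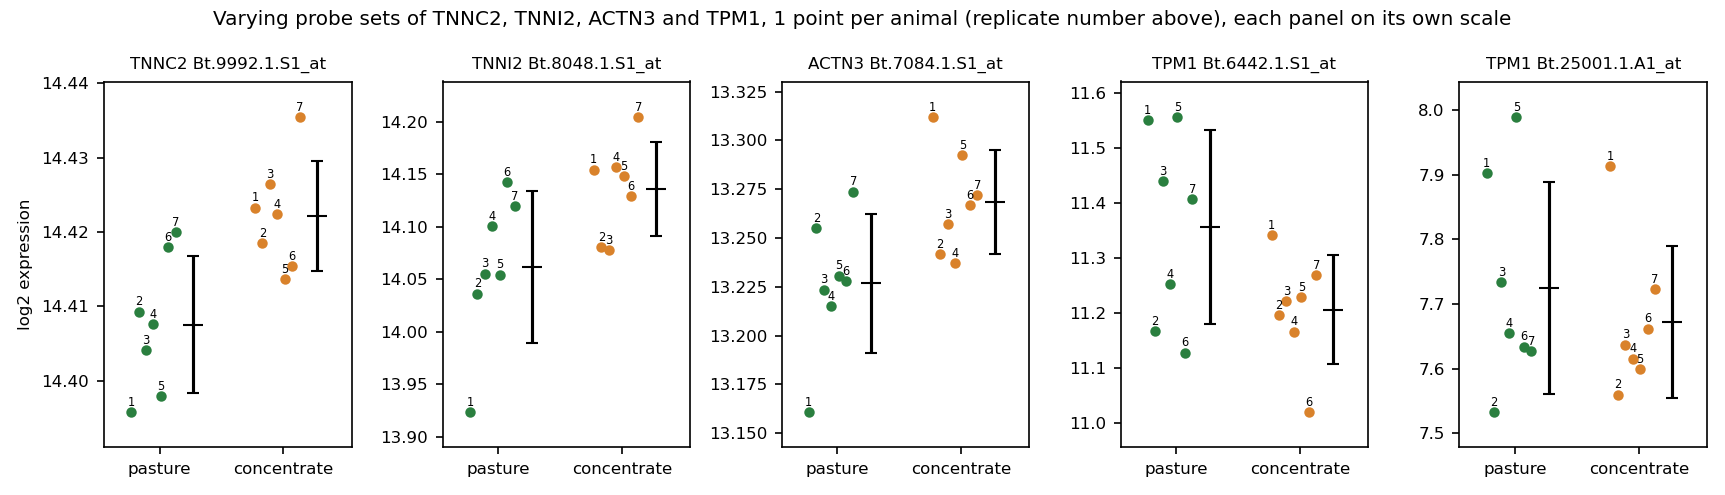
Log2 expression (y axis) of *TNNC2*, *TNNI2*, *ACTN3* and both *TPM1* probe sets in outdoor/pasture-fed (left, green) and indoor/concentrate-fed (right, orange) animals. Points are animals with replicate numbers, bars are the mean and SD, n = 7 each, and the scale differs by panel. Groups overlapped in all 5 panels.

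Animals with low *MYH1* Bt.29854.1.A1_at had high *TPM1* among the outdoor/pasture-fed heifers. Over the 7 animals *MYH1* Bt.29854.1.A1_at and *TPM1* Bt.6442.1.S1_at had a Pearson's r of −0.96 (exact permutation p = 0.00238) and a Spearman's rho of −0.93 (exact permutation p = 0.00675). The r was −0.96 without the 2 animals farthest from the median. In the indoor/concentrate-fed animals the same probe sets had an r of 0.29 (exact permutation p = 0.532, 0.37 without the 2 farthest animals) and a rho of 0.79 (exact permutation p = 0.048), with adjusted p of 0.703 and 0.302. The difference between the groups in this correlation was not tested. Of the 132 correlations computed within the groups none passed after adjustment, and that of the outdoor/pasture-fed animals had an adjusted p of 0.0982 for r and 0.178 for rho (exact permutation).

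Across the 12 varying members the number at an unadjusted p under 0.05 was 1 higher and 6 lower in outdoor/pasture-fed animals (limma), from 4 of the 5 genes with a varying probe set. Among all varying probe sets 9.23% were higher and 10.7% lower at this level. With the flat members included, 9 of 17 were at this level, but the 2 flat ones differed by 0.0020 or less. The share over all probe sets, flat ones included, was not computed, so this count has nothing to be judged against. When the varying probe sets were fitted alone, where 0.343% passed after adjustment, no member passed and 4 were at an unadjusted p under 0.05 against 19.6% of all varying probe sets. These 4 were the *MYH1* probe sets Bt.12300.2.S1_at, Bt.12300.1.S1_at, Bt.29854.1.A1_at and Bt.29854.1.S1_x_at. The members lower at an unadjusted p that did not stay there were *TNNC2*, *TNNI2* and *ACTN3*, with SDs over all arrays of 0.011, 0.069 and 0.037. None of the 12 had groups that did not overlap, a property of 0.811% of all varying probe sets. The median difference was −0.0047 over the 12 and −0.0077 over all varying probe sets.

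The slow counterparts did not pass the test either. Of the 14 slow fibre genes measured 11 varied, 9 of them higher and 2 lower, with a median difference of 0.11, and none passed after adjustment (limma). Of these 11, 6 were near-saturated. Of all varying probe sets 47.5% were higher. At an unadjusted p under 0.05, 1 was higher and 1 lower, against 9.23% and 10.7% of all varying probe sets. The slow myosin *MYH7* differed by 0.11 (SE 0.09), the slow light chain *MYL3* by 0.26 (SE 0.37), slow troponin C *TNNC1* by 0.03 (SE 0.02), slow troponin T *TNNT1* by 0.13 (SE 0.10) and the slow tropomyosin *TPM3* by 0.29 (SE 0.20). *ACTN2*, the actinin of all fibres, differed by −0.01 (SE 0.10), and the brightest probe sets of *MYL2* and *MYBPC1* were flat. The other *MYBPC1* probe sets differed by 0.12 (SE 0.04, limma unadjusted p = 0.0140, adjusted p = 0.299) and −0.11 (SE 0.21). They are not in these counts, which take the probe set of highest mean of each gene.

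Indoor/concentrate-fed replicate 3 stood lowest of its group for *MYH7* (13.35), *MYL3* (10.38), *TNNT1* (12.96) and *TNNC1* (14.21), and had the highest *MYH1* Bt.12300.1.S1_at value of that group (13.94). Without this animal the slow differences were 0.03 for *MYH7*, −0.04 for *MYL3*, 0.04 for *TNNT1* and 0.02 for *TNNC1*, and the median of the 11 was 0.03, with 8 higher and 3 lower. The slow fibre genes at an unadjusted p under 0.05 by their probe set of highest mean were named after their values were seen. They were *ATP2A2*, the slow calcium pump (0.16, SE 0.06), and *NFATC1*, a transcription factor of the slow programme (−1.05, SE 0.33, limma adjusted p = 0.264). Without indoor/concentrate-fed replicate 2 the *NFATC1* difference was −0.81, and the other *NFATC1* probe set was flat (6.01). *ATP2A2* was higher at all 4 of its probe sets, with differences of 0.09 to 0.52.

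**Figure D3:**
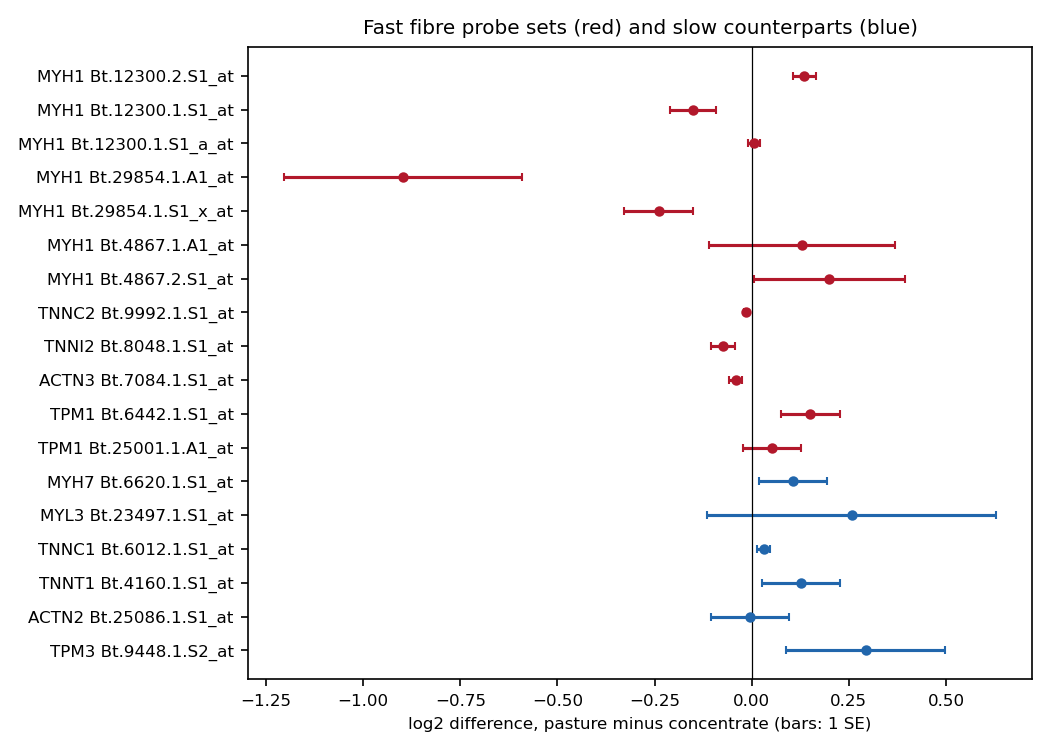
Log2 difference, outdoor/pasture-fed minus indoor/concentrate-fed (x axis), of the 12 varying fast fibre probe sets (red) and 6 slow counterparts (blue), with bars of 1 SE. *MYH1* probe sets lay on both sides of 0, from −0.90 to 0.20.

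Among other genes of the fast muscle programme and of the sarcomere that fibre types share, none passed the test. Of 31 listed 19 had a probe set and 10 varied, and 4 of the 10 were near-saturated. Of the 10, 2 were higher, the developmental myosins *MYH3* and *MYH8*, and 8 lower. The median difference was −0.017 (limma). With 1 array left out the median ran from −0.065, without outdoor/pasture-fed replicate 5, to −0.011, without indoor/concentrate-fed replicate 4. Only *MYOZ3*, a Z-disc protein that binds calcineurin, was at an unadjusted p under 0.05, where 10.7% of all varying probe sets were lower. It had values of 10.17 to 11.01 in outdoor/pasture-fed and 10.62 to 11.61 in indoor/concentrate-fed animals, a difference of −0.59 (SE 0.16, limma adjusted p = 0.226). Its other probe set differed by −0.33 (SE 0.11). *MYH3* differed by 0.46 (SE 0.63), and by −0.16 without outdoor/pasture-fed replicate 5. *ATP2A1*, the fast calcium pump, differed by −0.02, and *MYH4* and *PVALB* were not analysed here.

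The genes with the profile most like that of the brightest probe set annotated to *MYH1* over the 14 arrays were *EXOSC9* (Pearson's r = 0.87), *NDUFB8* (0.86), *XDH* (0.86), *SLC27A6* (0.86) and *FYN* (0.85). These are descriptions over arrays that share the group difference. Within the outdoor/pasture-fed animals r was 0.44 for *EXOSC9*, 0.72 for *NDUFB8*, 0.71 for *XDH*, 0.79 for *SLC27A6* and 0.79 for *FYN*. Within the indoor/concentrate-fed animals it was 0.77, 0.89, 0.86, 0.71 and 0.18 in the same order.

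**Figure D4:**
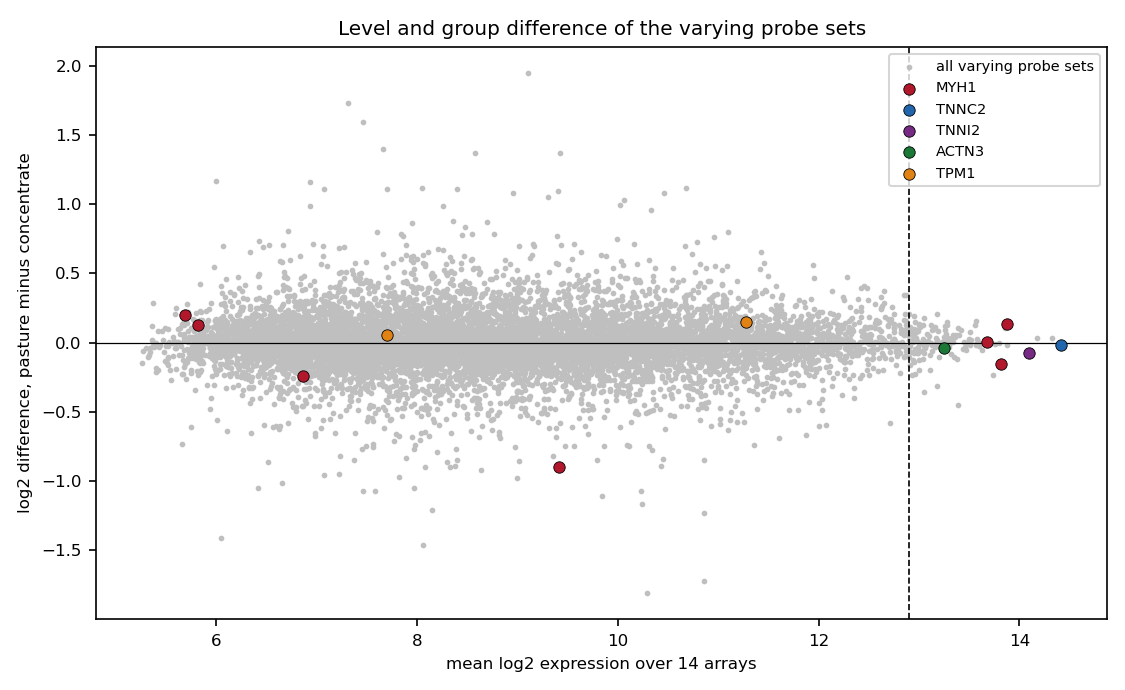
Log2 difference, outdoor/pasture-fed minus indoor/concentrate-fed (y axis), against mean log2 expression over 14 arrays (x axis), for 9623 varying probe sets (grey) and the 12 varying members (coloured by gene). The dashed line is the 99th percentile of all probe set means (12.90), to the right of which 6 of the members lie.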

How the data were processed

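The deposited values are log2 expression values of 14 arrays, made by the authors by quantile normalisation of the probe intensities and summary per probe set with FARMS, a factor analysis that leaves probe sets without a shared signal nearly constant. The genome build and tool versions are not given in the sources used here. Quantile normalisation fixes the highest values of each array to the same level, which limits how far the brightest probe sets can differ. No further normalisation was applied. The 112 control probe sets were left out, and 0 columns were of other series.

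The 24016 bovine probe sets entered 1 linear model per probe set with group as its only factor (R 4.3.3, limma 3.58.1, moderated with eBayes). Differences are those of outdoor/pasture-fed over indoor/concentrate-fed animals, and p-values were adjusted by Benjamini-Hochberg and called under 0.05. The fit was tested on simulated data. Exact permutation tests, two-sided, enumerated all 3432 assignments of the arrays. Levels of different probe sets were set against each other only to find the brightest and, as a description, within each array for a pair of *MYH1* probe sets. Gene symbols came from the platform annotation, where 13292 probe sets have 1 symbol, 86 several and 10638 none, and 13263 gene identifiers matched RefSeq. A gene in a list is represented by its probe set of highest mean. Array precision is limited by the number of animals.

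The members and gene lists were chosen with earlier results of these data known. The genes named are every member probe set, the slow counterparts, the genes of other fast type at an unadjusted p under 0.05 (the first 6 by p), *MYH4*, *ATP2A1* and *PVALB*, and the 5 genes most correlated with *MYH1*. Near-saturated means a mean above the 99th percentile or a value within 0.5 of the highest. The alternatives were arrays blocked by replicate number, a repeat of quantile normalisation, median-centred arrays, fits restricted by SD or mean level, a trended and robust prior, weighted arrays, and each array left out.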

Additional observations from a re-analysis of the deposited data

Results flagged for a closer look

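Of 50 groups of 7 animals tested for a single value apart from the others, 13 had one. Chance gives about 1 in 20 for independent groups, but these share the same animals and related probe sets. The count is therefore not a measure of excess. The measure is the gap to the nearest animal divided by the range of the group. Outdoor/pasture-fed replicate 5 was highest for *MYH1* Bt.4867.1.A1_at (0.952), *MYH1* Bt.4867.2.S1_at (0.875), *MYH8* (0.833) and *MYH3* (0.894). Indoor/concentrate-fed replicate 1 was highest for the same probe sets, at 0.699, 0.709, 0.77 and 0.595. Indoor/concentrate-fed replicate 3 was lowest for *MYL3* (0.603), *TNNC1* (0.635), *TNNT1* (0.592) and, outside the slow fibre genes, *LPL* (0.576). Indoor/concentrate-fed replicate 2 was lowest for *MYOZ3* (0.673).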

How the results depend on the processing

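No fast fibre probe set passed after adjustment under any alternative, the leave-one-out fits included. Among the 12 varying ones the number at an unadjusted p under 0.05 was 7, ran from 5 to 8 when arrays were left out in turn, and was 4 when only probe sets with an SD above 0.01 were fitted. Their median difference, −0.0047, was 0.0076 under renewed quantile normalisation, −0.0334 with array weights, −0.0282 above the median mean, −0.0147 with 1 probe set per gene and −0.0277 to −0.0017 with arrays left out. The difference of *MYH1* Bt.12300.1.S1_a_at, 0.01 in all arrays, ran from −0.0037 to 0.0129 with arrays left out, and was −0.00014 without outdoor/pasture-fed replicate 2 and −0.0037 without replicate 5. That of *MYH1* Bt.4867.1.A1_at, 0.13, was −0.057 with array weights, ran from −0.0997 to 0.199 with arrays left out, and was lowest without outdoor/pasture-fed replicate 5. Bt.4867.2.S1_at, 0.20, was 0.049 and *TPM1* Bt.25001.1.A1_at, 0.05, was 0.012 with array weights. Under renewed quantile normalisation the difference of *TNNC2* was 0 by construction, since it is the brightest bovine probe set on every array.

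The replicate numbers showed no clear pairing of the samples, though this was not tested. Deviations of same-numbered arrays correlated at −0.184 to 0.235, and 2 of 7 arrays correlated best with their own number. With the replicate number as a block, 6 fast fibre probe sets were at an unadjusted p under 0.05. The shift between the *MYH1* probe sets stayed at 0.287 by construction, since each number has 1 array per group. Leaving out 1 array gave shifts of 0.237 to 0.331. This description was chosen after seeing the data. The planned contrast of *MYH2* minus *MYH1* was not run, because no probe set is annotated to *MYH2*.

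Flat and near-saturated probe sets limit what these data can show for the light chains and the troponins.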
